A study of Mus musculus with 9 samples.

Results

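The genes of mitochondrial protein import and quality control were examined in mouse morulae, the compacted embryos that precede the blastocyst, made by in vitro fertilization with sperm of alcohol-exposed or control sires. Members were chosen by name. They were all gene symbols that begin with Timm or Tomm and a digit, pseudogenes left out, plus 15 named partners, chaperones, proteases and prohibitins. The rule selected 41 of the 53819 genes listed. The sires had received 10% ethanol, 6% ethanol or the control treatment, with 3 libraries of total embryo RNA in each group, and all embryos carried the C57BL/6J strain label. How the ethanol was given and for how long, the age of the sires, and the numbers of sires and embryos per library are not stated in the labels. The p-values below therefore measure the spread between libraries, which may be technical.

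Nearly all mitochondrial proteins are encoded in the nucleus, made in the cytosol and threaded into the organelle through the TOM complex of the outer membrane and the TIM complexes of the inner membrane. A motor built on the matrix heat shock protein Hspa9 pulls the chains in. Proteases of the matrix and the inner membrane then remove proteins that are damaged, misfolded or surplus, and the cleavage embryo inherits from the egg the organelles on which these systems act.

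Libraries held 6263465 to 27619281 counts. The count column carried a long header that names the aligner in 4 files, namely 10% ethanol 1 and 2, 6% ethanol 1 and control 2, and a short one in the other 5. All long-header libraries were deeper than all short-header ones, so header form is followed beside the results. Markers of the morula were present in each library, with 10 of 10 detected in the series and a summed level of 1538 to 2720 CPM at 10% ethanol, 1498 to 2428 CPM at 6% ethanol and 1745 to 2411 CPM in controls. CPM are counts scaled to a common library total. The sum over 10 cumulus and granulosa markers was at most 5.89 CPM, with Has2, Ptx3, Fshr and Inhba at 0 everywhere. That over 6 sperm markers was at most 2.93 CPM, with Prm2, Tnp1, Tnp2 and Odf1 at 0 everywhere, and that over 7 oocyte markers ran from 4.95 to 43.8 CPM. Because whole embryos were sequenced, fewer cells with a transcript and less of it per cell cannot be told apart.

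Together the 41 genes took 0.553, 0.550 and 0.501 percent of the counts in 10% ethanol libraries 1, 2 and 3, 0.551, 0.522 and 0.517 percent in the 6% ethanol libraries, and 0.479, 0.496 and 0.511 percent in the controls. The share thus varied little. Of the 41, 37 passed the low-count filter and were tested. The others were Tomm40l, with 3 counts in all, Tomm6 with 4, the antisense row Tomm6os with 1, and Tomm20l with 61 counts, 44 of them in 10% ethanol 2. In the annotation used for lengths (GENCODE M21), Tomm40l shares 64.3 percent of its exon length with Nr1i3 on the other strand. The largest share of Tomm6 with a single neighbouring gene is 76.0 percent, and Tomm6 overlaps genes on both strands. Whether reads there were counted by strand was not stated, so the low counts of these genes say little about their transcripts.

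Levels below are CPM on TMM-scaled library sizes, which correct for differences in composition. Levels are set between genes only as CPM per kilobase of exon. On that scale Tomm5, a small subunit of the outer membrane translocase, was highest, with a median of 452 CPM per kilobase over the 9 libraries and a range of 243 to 989. In CPM it had 491, 392 and 483 at 10% ethanol, 368, 859 and 354 at 6% and 265, 211 and 578 in controls. Tomm22, the central receptor of that complex, followed with a median of 254 and a range of 93.4 to 615. Hspa9 had a median of 162 and a range of 122 to 301. The ranges of these genes overlap. The lowest of the 37 was Timm10b, a small TIM protein of the carrier pathway in human cells, with a median of 0.433 CPM per kilobase. In plain CPM, 13 of the 37 averaged 100 or more, and 5 averaged under 10.

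The spread of a gene over the 9 libraries, as the SD of log2(CPM + 0.5), had a median of 0.81 over the 37 genes, against 1.05 over all 12488 genes tested. At a mean of 10 CPM or more it was 0.68 over 32 members and 0.89 over 7125 genes. The import receptor Tomm70a, which takes up precursors handed over by cytosolic chaperones, had the smallest spread, 0.27, followed by Hspa9 (0.39) and the presequence receptor Tomm20 (0.42). Dnajc19 (1.84), Htra2 (1.75) and Timm21 (1.63) had the largest.

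**Figure D1:**
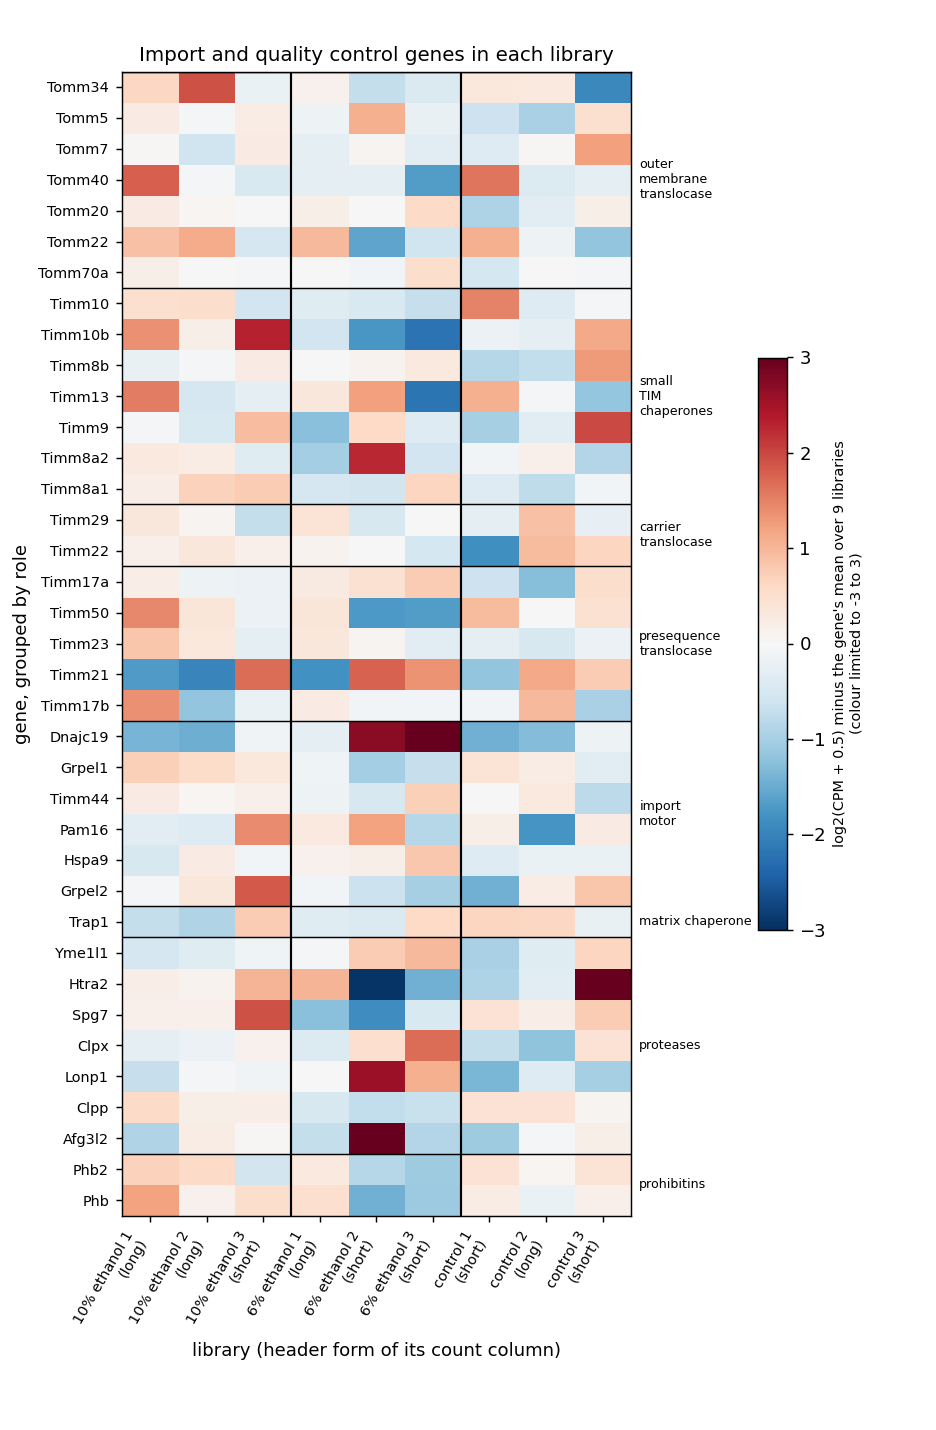
Levels of the 37 tested genes (rows, grouped by role) in the 9 libraries (columns, with the header form of each count column). Colour shows log2(CPM + 0.5) minus the gene's mean over the libraries, red above and blue below, limited to -3 to 3. Dnajc19 and Lonp1 are high in 6% ethanol 2 and 3, where Timm50, Phb and Phb2 are low.

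Differences between groups were tested with edgeR's quasi-likelihood test on the counts of all genes, with Benjamini-Hochberg adjustment over the 12488 tested. At an adjusted p under 0.05 none of the 37 members passed for 6% ethanol against control, 10% against control, 10% against 6%, or both ethanol groups against control, and 0 percent of all genes did. DESeq2 called 1 member in the first and 1 in the third of these, Dnajc19 both times, and 0 in the others, against 0.24, 0.0801, 0.248 and 0.136 percent of all genes in that order. At an unadjusted p under 0.05 by edgeR, 2 members were higher and 0 lower at 6% ethanol than in controls (5.41 percent), beside 3.2 and 3.04 percent of all genes, or 6.24 percent together. For 10% ethanol against control there were 0, beside 0.857 percent higher and 1.28 percent lower, or 2.14 percent. For 10% against 6% there were 2 higher and 2 lower (10.8 percent), beside 2.25 and 3.07 percent, or 5.33 percent. For both ethanol groups against control 1 was higher and 0 lower (2.7 percent), beside 1.11 and 2.96 percent, or 4.08 percent. Set against that background, these counts are no result about the members, and the values of single genes are given as measurements.

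Over the tested members, the log2 fold change for 6% ethanol against control lay above 0 in 17 and below 0 in 20. That is 45.9 percent above 0, beside 49.5 percent of all genes. The median log2 fold change was -0.16, beside -0.01 over all genes. For 10% ethanol against control 27 lay above 0 and 10 below, with a median of 0.23 beside -0.05. Above 0 were thus 73.0 percent of the members, beside 47.1 percent of all genes. Both comparisons use the same control libraries. With library totals in place of TMM scaling the median of all genes moved by -0.27 at 6% and -0.12 at 10%, and the members' medians became -0.42 and 0.11, with 23 above 0 and 14 below at 10%. The median of both ethanol groups against control was 0.12 with TMM scaling and -0.06 with library totals.

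**Figure D2:**
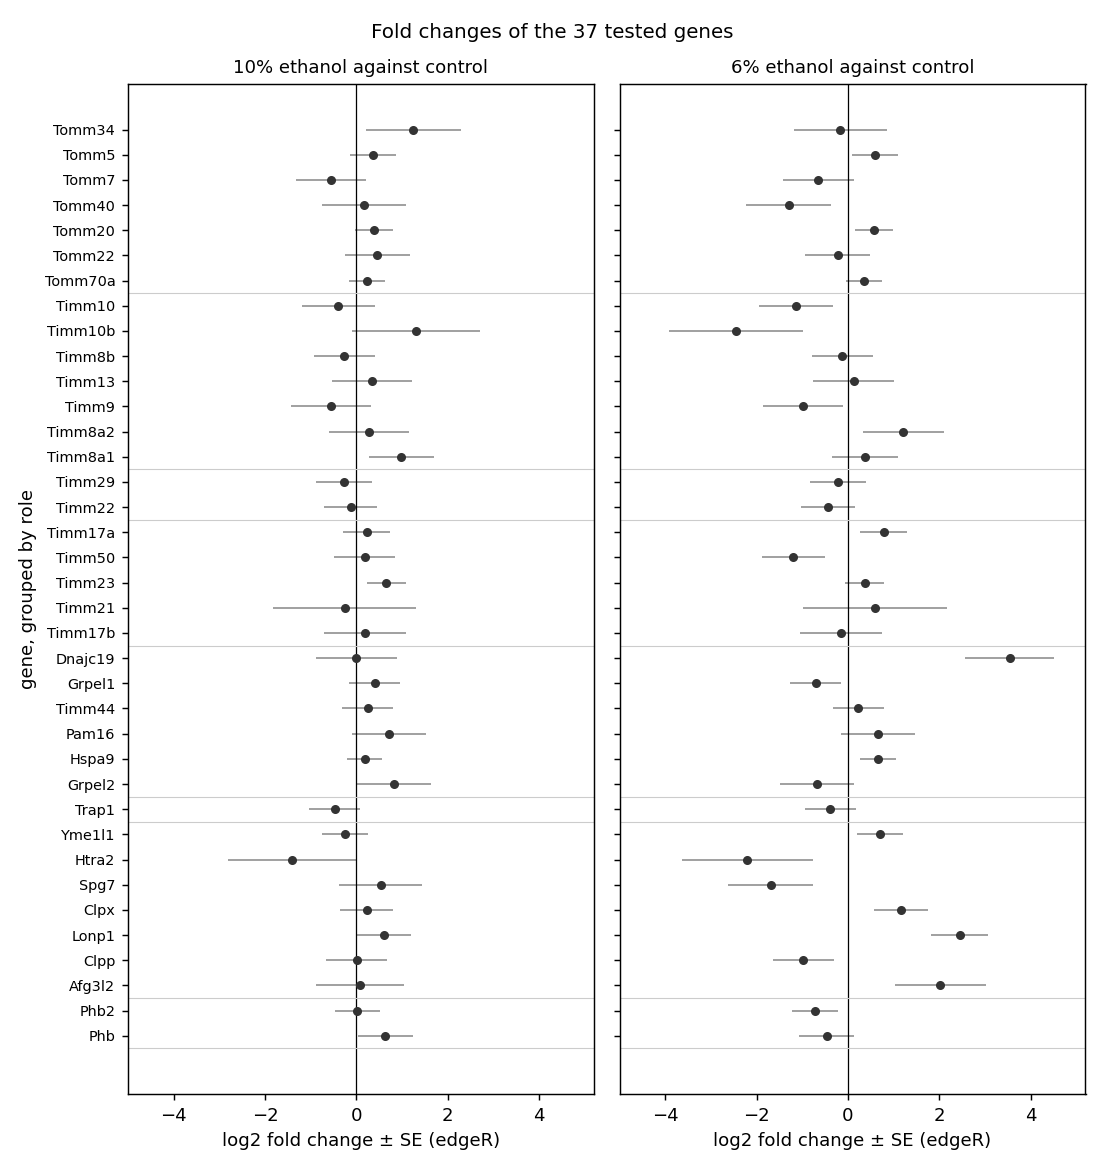
Log2 fold change with its standard error (edgeR, all 9 libraries in one fit) for each of the 37 tested genes, 10% ethanol against control on the left and 6% ethanol against control on the right. At 6% the values run from -2.46 (Timm10b) to 3.54 (Dnajc19), and at 10% from -1.40 (Htra2) to 1.32 (Timm10b).

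Among the proteases, Lonp1 differed between 6% ethanol and control without overlap of the groups. Lonp1 is the ATP-dependent protease of the matrix, which degrades oxidised and unassembled proteins. It had 186, 1093 and 389 CPM in 6% ethanol libraries 1, 2 and 3, against 71.5, 141 and 92.9 CPM in the controls. Every 6% library lay above every control, and library 2 was far above the rest. The log2 fold change was 2.45 ± 0.62 (SE), with adjusted p = 0.799 by edgeR. The adjusted p over the alternatives tried ran from 0.0197, with no low-count filter, to 1, and it was 0.0685 by DESeq2. The fold change was 1.48 without 6% ethanol 2. Between the long-header libraries alone, 1 against 1, it was 0.40, and between the short-header ones, 2 against 2, it was 3.15.

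At 10% ethanol Lonp1 had 114, 177 and 172 CPM, within reach of the controls (0.60 ± 0.59, adjusted p = 0.9999 by edgeR, or 0.92 without control 2) and below all 6% libraries. Set against 6% directly, it was lower at 10% by a log2 fold change of -1.85 ± 0.61 (adjusted p = 0.806 by edgeR), which was -0.88 without 6% ethanol 2. The exons of Lonp1 overlap no other annotated gene.

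The matrix protease ClpXP consists of the unfoldase Clpx and the peptidase Clpp. Clpx had 241, 259 and 322 CPM at 10% ethanol, 221, 417 and 931 CPM at 6% and 179, 126 and 397 CPM in controls, so that the groups overlap. Its partner Clpp had 25.2, 19.2 and 19.4 CPM at 10% ethanol, 12.0, 9.93 and 10.4 CPM at 6% and 22.9, 22.9 and 17.7 CPM in controls. The 6% values were tight and below all 6 others. For 6% against control the log2 fold change of Clpx was 1.16 ± 0.58 and that of Clpp -0.98 ± 0.67 (adjusted p = 0.802 and 0.837 by edgeR). Clpx was 0.41 without 6% ethanol 3, and at most 1.74, without control 3. Clpp kept its sign in each library left out, from -1.12 to -0.92, and was -0.93 between the long-header libraries and -1.02 between the short-header ones.

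Afg3l2 and Spg7 are subunits of the m-AAA protease, which faces the matrix from the inner membrane. Spg7 had 2.88, 1.72 and 5.40 CPM at 6% ethanol, against 10.5, 8.78 and 13.2 CPM in controls, with every 6% library below every control (-1.69 ± 0.93, adjusted p = 0.822 by edgeR). At 10% it had 8.57, 8.44 and 29.98 CPM, above all 6% libraries (2.22 ± 0.95, adjusted p = 0.806 by edgeR). Without 10% ethanol 3 that value was 1.37. Afg3l2 stood at 15.1, 234 and 13.3 CPM at 6% ethanol, against 11.7, 24.2 and 28.4 CPM in controls. Its log2 fold change of 2.03 ± 1.0 rested on a single library and was -0.59 without 6% ethanol 2.

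Yme1l1, the i-AAA protease that faces the intermembrane space, had 133, 146 and 174 CPM at 10% ethanol, below 183, 323 and 373 CPM at 6% (-0.96 ± 0.50, adjusted p = 0.806 by edgeR). The controls, at 96.3, 147 and 295 CPM, spanned both groups. Htra2, a serine protease of the intermembrane space, had 5.59, 5.19 and 10.3 CPM at 10% ethanol, 10.2, 0.191 and 1.43 CPM at 6% and 2.29, 3.68 and 49.8 CPM in controls. The high mean of the controls was that of control 3 alone, and up to 25.6 percent of the exon length of Htra2 is shared with a gene on the other strand.

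**Figure D3:**
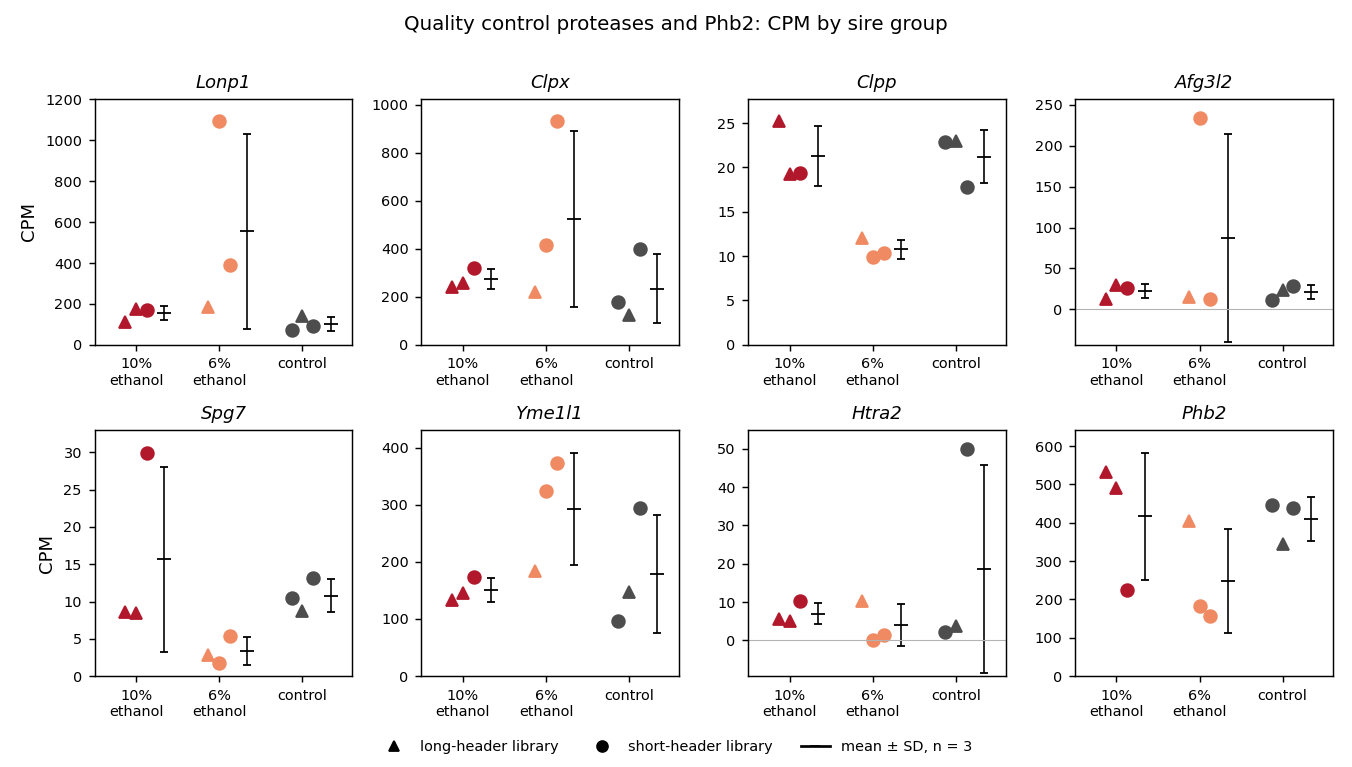
CPM of the 7 proteases and of Phb2 in each library, by sire group, with triangles for long-header and circles for short-header libraries and the mean ± SD (n = 3) beside each group. Clpp and Spg7 at 6% ethanol lie below all control points, and Lonp1 at 6% lies above them.

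Promoters of the genes on which these results turn are shown with their motif matches, so that genes higher in mean at 6% ethanol than in controls (Lonp1, Dnajc19) can be set beside genes lower in mean (Clpp, Spg7, Timm50). Sequences run 5′ to 3′ from 250 bases before to 50 after the annotated start, from RefSeq on build GRCm38.p6. The deposited counts use another build. Capitals mark matches to 5 motifs searched on both strands, NRF1 (GCGCNTGCG), the ETS core (CCGGAAG), the YY1 core (AAGATGGCG), the cyclic AMP response element (TGACGTCA) and a core of the CHOP composite element (TGATGCAA).
Lonp1, chr17:56626854-56627153, minus strand: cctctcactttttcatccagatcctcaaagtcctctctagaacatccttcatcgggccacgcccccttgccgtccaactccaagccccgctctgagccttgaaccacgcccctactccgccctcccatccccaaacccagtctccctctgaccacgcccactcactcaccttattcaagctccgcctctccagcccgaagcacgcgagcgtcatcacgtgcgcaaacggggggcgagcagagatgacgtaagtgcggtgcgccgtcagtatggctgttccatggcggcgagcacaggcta
Dnajc19, chr3:34081305-34081604, minus strand: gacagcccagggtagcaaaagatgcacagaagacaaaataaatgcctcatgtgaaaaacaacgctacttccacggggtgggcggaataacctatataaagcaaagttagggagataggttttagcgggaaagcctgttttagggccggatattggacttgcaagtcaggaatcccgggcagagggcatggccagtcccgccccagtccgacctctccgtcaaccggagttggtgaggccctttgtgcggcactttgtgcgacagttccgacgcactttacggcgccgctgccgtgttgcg
Clpp, chr17:56990014-56990313, plus strand: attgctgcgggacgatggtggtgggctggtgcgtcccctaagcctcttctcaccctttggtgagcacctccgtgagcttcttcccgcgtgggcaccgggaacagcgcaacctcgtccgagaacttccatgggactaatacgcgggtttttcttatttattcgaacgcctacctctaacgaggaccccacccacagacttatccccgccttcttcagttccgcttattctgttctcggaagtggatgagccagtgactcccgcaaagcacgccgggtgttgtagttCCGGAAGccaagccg
Spg7, chr8:123065258-123065557, plus strand: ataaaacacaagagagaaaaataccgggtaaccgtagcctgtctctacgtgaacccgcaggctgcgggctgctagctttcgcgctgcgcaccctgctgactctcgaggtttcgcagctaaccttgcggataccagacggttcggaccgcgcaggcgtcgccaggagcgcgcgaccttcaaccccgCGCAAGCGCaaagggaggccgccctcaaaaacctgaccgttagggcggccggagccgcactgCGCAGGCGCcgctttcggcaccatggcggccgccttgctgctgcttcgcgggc
Timm50, chr7:28311997-28312296, minus strand: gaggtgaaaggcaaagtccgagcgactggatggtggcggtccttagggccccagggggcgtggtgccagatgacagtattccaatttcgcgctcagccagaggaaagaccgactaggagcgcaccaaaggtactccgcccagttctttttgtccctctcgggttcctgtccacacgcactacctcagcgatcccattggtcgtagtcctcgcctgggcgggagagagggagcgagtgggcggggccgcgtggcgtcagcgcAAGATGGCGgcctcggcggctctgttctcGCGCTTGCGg
Spg7 held 2 NRF1 matches, Clpp 1 ETS core, and Timm50 1 YY1 core and 1 NRF1 match, with no overlap between matches. The letters of the 5 motifs were not found in the windows of Lonp1 and Dnajc19. Other members did not divide in this way. NRF1 matches lay in Clpx and ETS cores in Yme1l1, both higher in mean at 6% ethanol than in controls. No motif was found in Tomm40, which was lower in mean.

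Of the 41 members 34 were matched in that table by symbol. Tomm40l, Tomm7, Htra2, Hspa9, Grpel2, Afg3l2 and Timm21 were not. The ETS core lay in 13 of the 34 (38.2 percent), against 21.6 percent of the 8945 tested genes with a promoter and 9.93 percent of all 27025. NRF1 lay in 9 members (26.5 percent), against 16.2 and 7.12 percent. With 1 more letter at its end NRF1 lay in 5 members (14.7 percent), against 12.2 and 5.19 percent, and the shorter form was taken after the longer had been counted. The YY1 core was found in 1 member, or 2.94 percent, against 3.89 and 1.64 percent, and also in 1 with 1 more letter, against 2.63 and 0.995 percent. The cyclic AMP element lay in 1 member, against 3.83 and 2.03 percent. The CHOP core lay in 0 of the 34, and in 0.615 percent of tested and 1.03 percent of all genes. Holders of the ETS core lay on both sides of 0 in log2 fold change for 6% ethanol against control. Timm23, Timm8a2, Tomm70a and Yme1l1 lay above 0 and the other holders below. Of all 37 tested members 20 lay below. A link between motif and direction was not tested.

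In the import motor the J-protein Dnajc19 differed most. Dnajc19 sits at the TIM23 channel, where J-proteins stimulate the ATPase of Hspa9, and the human protein also binds prohibitins. It had 9.06, 75.6 and 126 CPM in 6% ethanol libraries 1, 2 and 3, against 3.84, 4.23 and 10.1 CPM in the controls. Libraries 2 and 3 were high and library 1 lay inside the control range, so the groups overlap. The log2 fold change was 3.54 ± 0.98 (adjusted p = 0.799 by edgeR and 0.0290 by DESeq2). Over all alternatives the adjusted p ran from 0.0290 to 1, and the fold change without each library in turn from 2.74 to 4.06.

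At 10% ethanol Dnajc19 had 3.97, 3.77 and 10.5 CPM, close to the controls. The difference from 6% was -3.53 ± 0.98 (adjusted p = 0.806 by edgeR and 0.0288 by DESeq2, range over alternatives 0.0288 to 1). With header form as a term these log2 fold changes were 3.05 for 6% against control and -2.68 for 10% against 6%. Between the long-header libraries alone the value for 6% against control was 1.1, and between the short-header ones 3.85. Dnajc19 shares 4.4 percent of its exon length with Fxr1 on the other strand. Fxr1 had 43.4, 64.6 and 74.0 CPM at 10% ethanol, 56.0, 145 and 147 CPM at 6% and 21.9, 71.9 and 156 CPM in controls. Within each group both genes were highest in library 3. In the whole series Fxr1 was highest in control 3 and Dnajc19 in 6% ethanol 3. Whether reads of Fxr1 enter the counts of Dnajc19 was not tested. The pseudogene row Dnajc19-ps reached at most 3.63 CPM, in 6% ethanol 2.

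The J-like partner Pam16, which holds Dnajc19 at the channel, had 36.4, 69.9 and 16.2 CPM at 6% ethanol, against 33.7, 8.38 and 35.5 CPM in controls, in overlapping groups. Hspa9 itself, the mitochondrial Hsp70, had 807, 828 and 1297 CPM at 6% ethanol, against 563, 640 and 647 CPM in controls. These groups do not overlap with TMM scaling and overlap with library totals alone (0.66 ± 0.39, adjusted p = 0.822 by edgeR, or 0.37 without 6% ethanol 3). At 10% Hspa9 had 527, 878 and 697 CPM.

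Grpel1 and Grpel2 are the nucleotide exchange factors that reset Hspa9. Grpel1 had 60.9, 54.1 and 45.9 CPM at 10% ethanol, above 33.8, 18.1 and 22.6 CPM at 6%, while controls had 49.4, 43.2 and 29.2 CPM. For 10% against 6% the log2 fold change was 1.11 ± 0.57 (adjusted p = 0.806 by edgeR). Grpel2 had 16.7, 22.3 and 64.1 CPM at 10% ethanol and 16.6, 11.1 and 8.59 CPM at 6%, which did not overlap with TMM scaling and overlapped with library totals (1.5 ± 0.83, or 0.71 without 10% ethanol 3). Timm44, the anchor of Hspa9 at the channel, ran from 29.3 to 83.8 CPM.

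**Figure D4:**
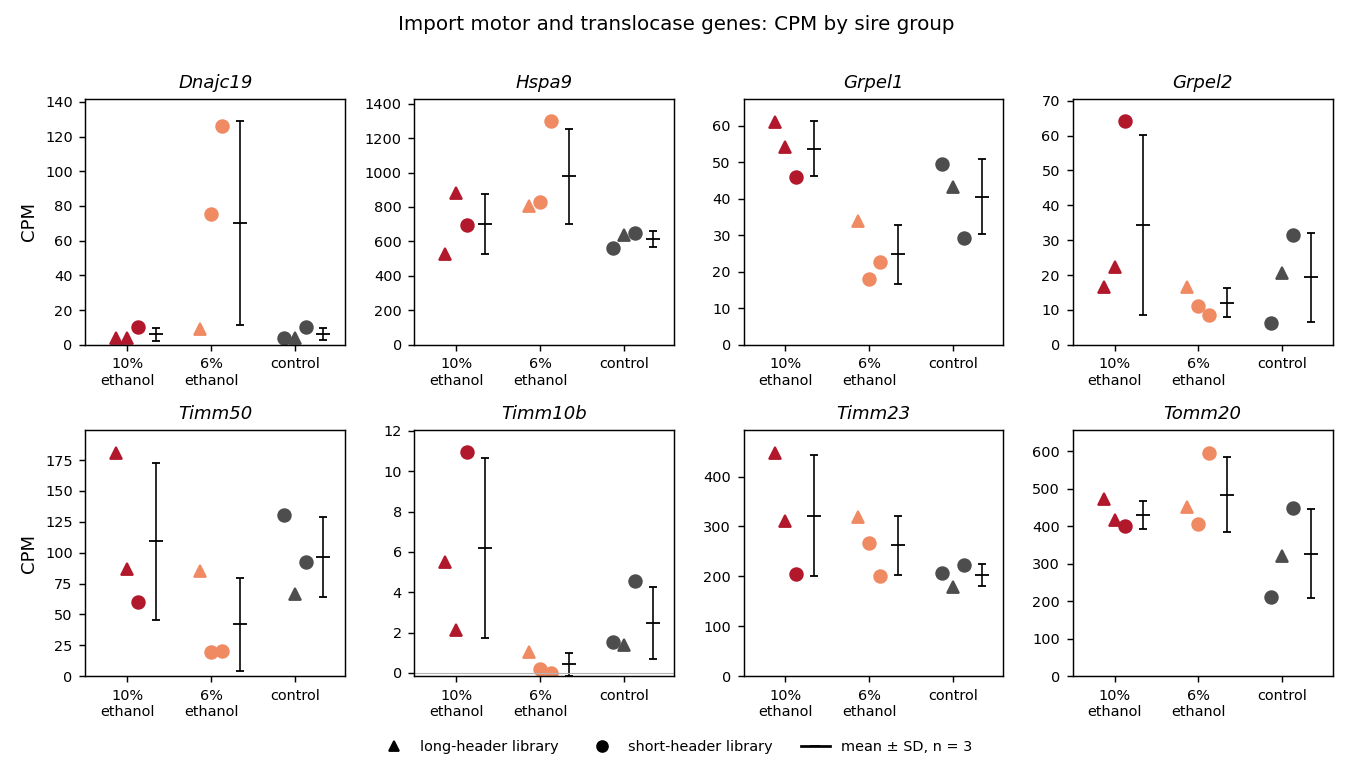
CPM of 8 import genes in each library, by sire group, with triangles for long-header and circles for short-header libraries and the mean ± SD (n = 3) beside each group. Dnajc19 is high in the short-header libraries of the 6% group (75.6 and 126 CPM), and Grpel1 at 10% lies above all 6% points.

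In the presequence translocase, Timm50 is the receptor that passes precursors to the Timm23 channel. Timm50 had 85.5, 19.9 and 20.7 CPM in 6% ethanol libraries 1, 2 and 3, against 130.4, 66.3 and 92.4 CPM in controls. Libraries 2 and 3 lay below the controls and library 1 among them (-1.19 ± 0.69, adjusted p = 0.822 by edgeR). That value was -2.27 without 6% ethanol 1 and -0.84 without 6% ethanol 2. Its log2 fold change was 0.37 between the long-header libraries, 1 against 1, and -2.47 between the short-header ones, 2 against 2. The sign of the long-header value rests on 6% ethanol 1 and control 2 alone. At 10% it had 181, 86.6 and 59.6 CPM, higher in mean than at 6% (1.37 ± 0.69, adjusted p = 0.806 by edgeR), with 2.45 without 6% ethanol 1 and 0.81 without 10% ethanol 1.

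Timm23, the channel itself, had 448, 311 and 205 CPM at 10% ethanol, against 207, 180 and 224 CPM in controls (0.66 ± 0.43), and the groups overlap through 10% ethanol 3. Without 10% ethanol 1 it was 0.35. Between the long-header libraries the value was 1.07 and between the short-header ones -0.07. Timm17a, which pairs with the channel, had 149, 117 and 115 CPM at 10% ethanol, below 157, 179 and 222 CPM at 6% (-0.55 ± 0.52, adjusted p = 0.833 by edgeR, or -0.36 without 6% ethanol 3). Timm21, a tether between the TIM23 and TOM complexes, had 0.366, 0.219 and 8.44 CPM at 10% ethanol, 0.296, 9.17 and 6.72 CPM at 6% and 0.735, 5.67 and 4.25 CPM in controls. It was under 1 CPM in 10% ethanol 1 and 2, 6% ethanol 1 and control 1, and above 4 CPM in the other 5 libraries.

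In the carrier pathway Timm22, the inner membrane channel for metabolite carriers, had 303, 341 and 300.3 CPM at 10% ethanol, above 292, 275 and 189 CPM at 6%, by a margin that closed with library totals (0.32 ± 0.58, adjusted p = 0.907 by edgeR, or 0.19 without 6% ethanol 3). The controls, at 75.7, 525 and 425 CPM, lay on both sides of them. Timm29, a subunit of the same complex in human cells, ran from 22.8 to 69.2 CPM.

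The small TIM proteins escort hydrophobic precursors through the intermembrane space. Timm10b had 5.49, 2.12 and 10.9 CPM at 10% ethanol, 1.06, 0.191 and 0 CPM at 6% and 1.55, 1.37 and 4.54 CPM in controls. A count of 0 in 6% ethanol 3 allows up to 0.330 CPM on counting error. All 6% libraries lay below all others (-2.46 ± 1.47 against control, and 3.77 ± 1.54 for 10% against 6%, with adjusted p = 0.822 and 0.806 by edgeR). Without 6% ethanol 1 these values were -4.80 and 6.11, while they were -1.72 without control 3 and 3.10 without 10% ethanol 3. Counts were low here, and up to 10.5 percent of its exon length is shared with a neighbour.

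Timm8a1, an X-linked small TIM whose human counterpart is mutated in a deafness-dystonia syndrome, had 19.1, 26.7 and 28.4 CPM at 10% ethanol, against 12.4, 9.47 and 15.5 CPM in controls. It was the only tested member whose 10% and control libraries did not overlap (0.99 ± 0.72, adjusted p = 0.9999 by edgeR). Its log2 fold change was 1.27 between long-header and 1.02 between short-header libraries. The related Timm8a2 had 92.8 CPM in 6% ethanol 2 and at most 23.2 CPM elsewhere. Of the other members of this class, Timm9 ran from 9.52 to 94.1 CPM, Timm10 from 8.26 to 39.2, Timm13 from 8.81 to 123 and Timm8b from 21.4 to 96.5, with groups that overlap, save Timm10 on library totals, where each 6% library lay below each control.

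In the outer membrane translocase no member separated a pair of groups. Tomm20 had 472, 415 and 402 CPM at 10% ethanol, 450.01, 406 and 597 CPM at 6% and 211, 321 and 448 CPM in controls. Tomm70a had 342, 305 and 290 CPM at 10% ethanol, 302, 284 and 433 CPM at 6% and 210, 302 and 287 CPM in controls. Tomm22 spread more, from 154 to 1015 CPM, with 859, 1015 and 328 CPM at 10%, 912, 154 and 307 CPM at 6% and 975, 420 and 207 CPM in controls, and was highest in long-header libraries and control 1. Tomm34, a cytosolic cochaperone of import, had 9.30, 23.8 and 5.13 CPM at 10% ethanol, against 7.51, 7.33 and 1.17 CPM in controls (1.25 ± 1.03, or 0.42 without 10% ethanol 2 and 0.78 without control 3). The pore subunit Tomm40 ran from 3.74 to 46.6 CPM and the small subunit Tomm7 from 9.06 to 33.7 CPM.

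The prohibitins Phb and Phb2 form a ring scaffold in the inner membrane around the m-AAA protease. Phb2 had 404, 183 and 158 CPM at 6% ethanol, against 446, 344 and 439 CPM in controls, and Phb had 95.9, 24.6 and 31.4 CPM, against 78.1, 58.2 and 74.2 CPM. Both were low in 6% ethanol 2 and 3 and not in 6% ethanol 1. At 10% Phb had 156, 73.7 and 96.7 CPM (0.63 ± 0.60 against control, or 0.29 without 10% ethanol 1) and Phb2 had 533, 491 and 225 CPM. Trap1, the mitochondrial Hsp90, had 92.9, 81.2 and 259 CPM at 10% ethanol, 118, 111 and 229 CPM at 6% and 238, 234 and 129 CPM in controls.

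Groups that do not overlap are counted against the background. For 6% ethanol against control they were 5 of 37 members (13.5 percent), Lonp1 and Hspa9 higher and Timm10b, Spg7 and Clpp lower, beside 8.06 percent of all genes tested, 3.35 percent higher and 4.72 percent lower. With library totals they were also 5, with Lonp1 higher and Timm10, Timm10b, Spg7 and Clpp lower. Shares of all genes were counted with TMM scaling only, so counts with library totals have no background here. For 10% ethanol against control it was Timm8a1 alone, higher (2.7 percent), beside 8.06 percent, with 4.39 percent higher and 3.67 percent lower. For 10% against 6% they were 9 (24.3 percent), beside 9.66 percent, 6.05 percent higher and 3.6 percent lower, with Grpel1, Timm10b, Spg7, Timm22, Clpp and Grpel2 higher and Timm17a, Yme1l1 and Lonp1 lower at 10%. With library totals the last count was 7, without Timm22 and Grpel2, again with no share of all genes to set beside it. For both ethanol groups against control it was 0, beside 1.79 percent, 0.769 percent higher and 1.02 percent lower.

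The libraries 6% ethanol 2 and 3 recur in these results. Lonp1, Clpx, Dnajc19 and Yme1l1 were high in both, and Timm50, Phb, Phb2 and Grpel1 low, relative to 6% ethanol 1. These libraries are short-header ones, held 6263465 and 10909921 counts, and had TMM factors of 0.840 and 0.836, the lowest of the series. Mitochondrially encoded messenger RNAs took 2.77 and 4.42 percent of their counts, against 0.572 to 1.89 percent in the 7 other libraries. The part of depth, header form and composition in the member values was not tested beyond the values given above.

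Ratios of partner genes within a library do not depend on its scaling. The pairs were chosen after their values were seen. Clpx over Clpp, in CPM per kilobase, was 3.35, 4.72 and 5.81 at 10% ethanol, 6.42, 14.7 and 31.5 at 6% and 2.74, 1.92 and 7.84 in controls. The 6% and control groups overlap, since 6% ethanol 1 lay below control 3. Lonp1 and Clpp belong to separate proteases. Lonp1 over Clpp was 1.27, 2.58 and 2.49 at 10% ethanol, 4.32, 30.8 and 10.5 at 6% and 0.875, 1.72 and 1.47 in controls. The 6% libraries stood apart from all 6 others, as they already did for Lonp1 (above) and Clpp (below) alone. The separation of the ratio follows from that and adds no further result. Spg7 over Afg3l2 ran from 0.0161 in 6% ethanol 2 to 2.54 in 10% ethanol 3. Dnajc19 over Pam16 was 0.150, 0.654 and 4.70 at 6% ethanol and 0.0688, 0.305 and 0.172 in controls.

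The ratio varied least for Tomm20 over Tomm70a among the 11 pairs computed. It lay between 2.0 and 3.11 in all 9 libraries, a 1.55-fold range. Phb over Phb2 lay between 0.178 and 0.569, and the 3 controls gave 0.232, 0.224 and 0.224.

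**Figure D5:**
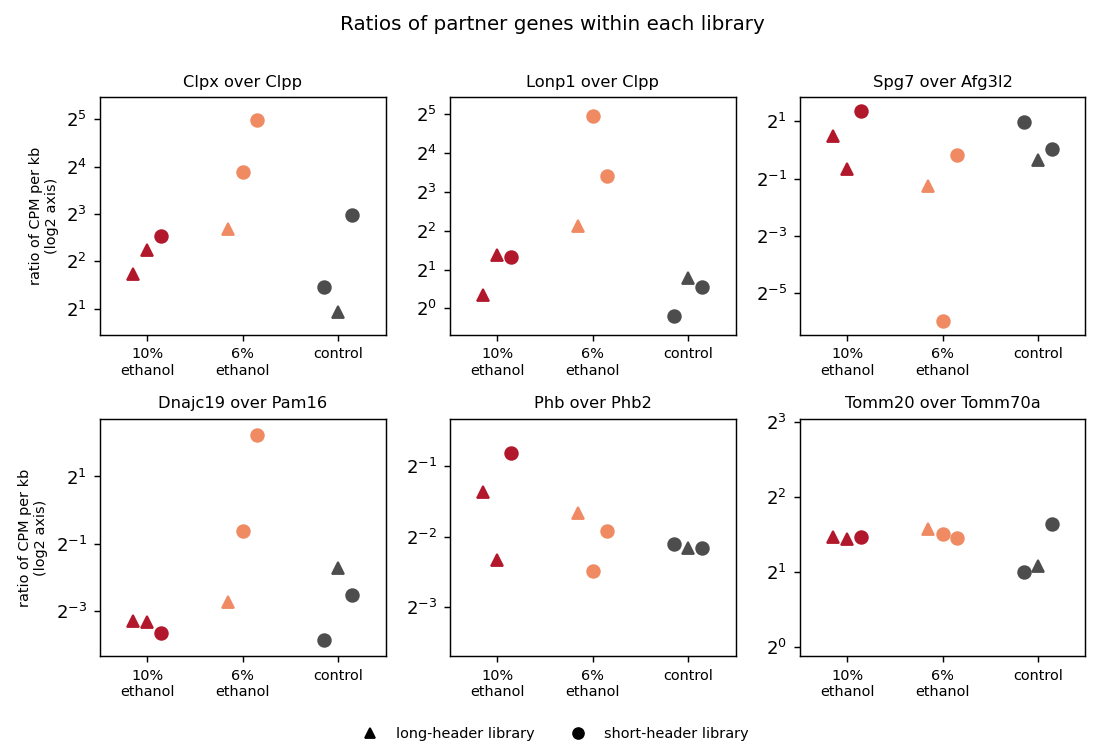
Ratio of CPM per kilobase of exon for 6 gene pairs in each library, on a log2 axis, by sire group, with triangles for long-header and circles for short-header libraries. Clpx over Clpp and Lonp1 over Clpp reach their highest values in the 6% group (31.5 and 30.8). For Clpx over Clpp the 6% and control groups overlap. Tomm20 over Tomm70a stays between 2.0 and 3.11.

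Other genes of the pathway were read from 7 lists, which cover the processing peptidases, the relay and insertion machinery, matrix chaperones, further proteases, the cristae organising complex, mitophagy and dynamics, and stress regulators. Of 52 names 51 were in the files and 49 were tested, and none passed by edgeR in any of the 4 comparisons. At an unadjusted p under 0.05 there were 1 higher and 2 lower for 6% ethanol against control, 0 and 2 for 10% against control, 0 and 2 for 10% against 6%, and 0 and 2 for both groups against control. As shares of the 49 these are 6.12, 4.08, 4.08 and 4.08 percent, near the background of all genes given above.

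Hspd1, the Hsp60 chaperonin of the matrix, had 249, 339 and 286 CPM at 10% ethanol, below 372, 737 and 665 CPM at 6% (-1.02 ± 0.45, adjusted p = 0.806 by edgeR). Dnajc15, a relative of Dnajc19, had 88.8, 64.6 and 98.7 CPM at 10% and 87.5, 806 and 113 CPM at 6% (-2.0 ± 0.84), where 6% ethanol 2 alone was high. Bnip3, a mitophagy receptor, had 124, 218 and 451 CPM at 6% ethanol, against 120.1, 78.6 and 110.1 CPM in controls (1.36 ± 0.52, adjusted p = 0.799 by edgeR). These groups do not overlap with TMM scaling, and overlap with library totals, where 6% ethanol 1 had 129 CPM and control 1 had 133 CPM. At 10% ethanol Bnip3 had 142, 143 and 171 CPM, above all controls with either scaling. In that comparison 8.06 percent of all genes tested did not overlap with TMM scaling.

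The fusion dynamin Opa1, a substrate of Yme1l1, had 36.4, 107 and 28.3 CPM at 6% ethanol and 108, 79.2 and 1143 CPM in controls, and Micos10, a cristae subunit, had 11.6, 66.4 and 24.2 CPM and 22.8, 26.4 and 556 CPM. Their log2 fold changes against control were -2.95 ± 1.07 and -2.57 ± 1.16 at 6%, and -2.58 ± 1.06 and -3.10 ± 1.19 at 10%. Control 3 was far above the other controls for both genes, and fold changes without it are not given here. Micos10 in controls 1 and 2 lay inside the range of the 6% libraries and of the 10% libraries, 9.83 to 44.2 CPM. Opa1 in controls 1 and 2 lay inside the 10% range, 26.9 to 163 CPM, and control 2 inside the 6% range. With library totals every 6% library of Opa1, at 37.8, 89.7 and 23.6 CPM, lay below every control, at 120, 93.1 and 1145 CPM. Of the 5 stress regulators, Atf4, Atf5, Ddit3, Dele1 and Eif2ak1, 5 lay above 0 for 10% against 6%, beside 49.5 percent of all genes. Their median log2 fold change was 0.98, and none was at an unadjusted p under 0.05 by edgeR. Against control, 1 lay above 0 and 4 below at 6% ethanol, with a median of -0.82. At 10% ethanol 2 lay above 0 and 3 below, with a median of -0.35. The 13 mitochondrially encoded messenger RNAs had a median log2 fold change of 1.57 for 6% against control and -0.55 for 10% against control, in comparisons that share their controls. Their share of the counts was 0.783, 2.77 and 4.42 percent at 6% ethanol and 1.03, 1.13 and 1.89 percent in controls. At an unadjusted p under 0.05 by edgeR, 4 of the 13 were higher for 6% against control, beside 3.2 percent of all genes. For 10% against 6%, 7 of the 13 were lower, beside 3.07 percent. All 13 lay above 0 in the former comparison and below 0 in the latter, so they are not counted as separate results. By adjusted p none passed.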

How the data were processed

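Total RNA of mouse morulae was measured in 9 libraries, 3 per sire group. The deposited files hold raw counts per gene for each library, made by the authors with featureCounts on build GRCm39, per the submitters' processing notes, which also name DESeq2. The aligner is RNA STAR in 4 file headers and not given in the sources used here for the other 5. Versions, annotation and strand setting are also not given there. All pairs of libraries differed beyond sampling noise (the lowest chi-square over its degrees of freedom was 116). Replicate numbers follow accession order and pair nothing.

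Counts were filtered with filterByExpr, scaled with TMM and fitted with 3 groups by edgeR 4.0.16 (R 4.3.3) over all 9 libraries, with Benjamini-Hochberg adjustment over 12488 genes and a threshold of 0.05. Standard errors came from the fold change and its F statistic. The fit was tested on simulated counts. The common biological coefficient of variation was 0.911. Alternatives were RLE scaling, library totals, no filter, a stricter filter (1 CPM in 5 libraries), DESeq2 1.42.0, voom with quality weights (limma 3.58.1), only the groups compared, header form as a term or alone, an adjusted p of 0.1 as threshold, and leaving out 1 library at a time. Named genes were the 6 members of smallest p per comparison, members whose groups do not overlap, and extremes of level and spread. Fxr1 and the remaining members were named after their values were seen. Members and lists were chosen with earlier results of these data known. Exon lengths came from GENCODE M21. Depth limits precision, and a count of 0 was read against 3 counts. Intervals of this kind cover counting error only.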

Additional observations from a re-analysis of the deposited data

How the results depend on the processing

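No count of genes called by edgeR changed with RLE scaling, library totals, the stricter filter, voom, only the groups compared, header form as a term or a threshold of 0.1, and without each library in turn it stayed between 0 and 0 in the 4 comparisons, for all genes and for the members. With no low-count filter edgeR called 140 genes for 6% ethanol against control, 47 for 10% against control, 147 for 10% against 6% and 153 for both groups against control, and DESeq2 called 30, 10, 31 and 17. Among the members these were 1 with no filter (Lonp1, 6% against control) and 1 by DESeq2 in each of 6% against control and 10% against 6% (Dnajc19). In long-header libraries alone edgeR called 3, 9, 4 and 13 genes in that order of comparisons, and in short-header libraries alone 48, 2, 1 and 5, with 0 members in each. These fits, counted after seeing the data, have 1 and 2 residual degrees of freedom, and their lone libraries are assumed to vary like the other groups. The cause was not tested. Only the groups compared gave no separate value for both ethanol groups against control, since it uses all libraries.

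Of 442 log2 fold changes of named members under alternatives other than header form alone, 1 reversed, that of Afg3l2 for 6% against control, at -0.59 without 6% ethanol 2, in a range up to 2.5 over the libraries left out. Within header forms alone 4 of 52 reversed. In long-header libraries Afg3l2 was -0.68 and Timm50 0.37 for 6% against control, and Grpel2 -0.084 for 10% against control. In short-header libraries Timm23 was -0.074 for 10% against control. The median over the members for 6% against control was 0.08 without control 1, 0.12 without control 2 and 0.08 in long-header libraries alone, against -0.16 in the full fit. Depth limits the genes of few counts, of which Timm10b, Timm21 and Tomm34 are examples. No paired analysis was possible because the labels give no replicate numbers that groups share.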

Other observations

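Ratios of further partner genes, in CPM per kilobase of exon and chosen after their values were seen, overlapped between the groups for 4 of 5 pairs. Timm10 over Timm9, which form a hexameric chaperone, was 4.45, 6.15 and 1.05 at 10% ethanol, 5.81, 1.44 and 2.42 at 6%, and 18.0, 2.92 and 0.745 in controls. Timm13 over Timm8b, partners in the second hexamer, ran from 0.0693 in 6% ethanol 3 to 1.56 in control 1. Timm17a over Timm17b, alternative partners of the Timm23 channel, ran from 0.739 in control 2 to 10.6 in control 3. Grpel1 over Grpel2 ran from 1.37 in 10% ethanol 3 to 15.5 in control 1. The exception was Timm50 over Timm23, the receptor over its channel, at 0.269, 0.185 and 0.193 at 10% ethanol, 0.179, 0.0496 and 0.0684 at 6%, and 0.419, 0.246 and 0.275 in controls, where the 6% libraries lay below all others, 6% ethanol 1 by a small margin.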
